A study of Rattus norvegicus with 40 samples.

Results

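Fetal rat liver was compared with regenerating adult rat liver, a pair of tissues in which hepatocytes divide. The 7 total RNA arrays used, 4 of fetal liver and 3 of liver after partial hepatectomy, were taken by their labels out of 40 arrays in 12 groups of the series. All animals were of the Sprague Dawley strain and all 7 livers came from animals given DMSO, the vehicle of the drug rapamycin. The 4 fetuses were injected with DMSO on gestation day 19 and delivered on day 20, 24 hours later, for removal of the liver. The 3 adults weighed 125 to 150 g, received DMSO by intraperitoneal injection 1 hour before partial hepatectomy, an operation that takes out most of the liver, and were killed 24 hours after surgery. Livers of 3 adults that had fasted for 48 hours, received DMSO and been refed for 3 hours give the level in adult liver that the labels call non-proliferating, and enter no comparison. Livers of 4 fetuses given 50 ug of rapamycin each and of 3 hepatectomised adults given 250 ug per 100 g, separate from the 7, repeat the same comparison under an inhibitor of the growth-controlling kinase mTOR.

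Before birth the liver is the main blood-forming organ, and its hepatocytes are immature: they make alpha-fetoprotein and insulin-like growth factor 2 and have yet to switch on many enzymes of drug, steroid and amino acid metabolism. After partial hepatectomy, differentiated hepatocytes of the remnant leave quiescence and enter the cell cycle nearly together, while the organ goes on secreting plasma proteins and meets the inflammatory signals of surgery. The labels describe the fetal hepatocytes as dividing asynchronously and those of the regenerating liver as dividing in synchrony. Stage of life, surgery and any batch in which arrays were processed differ together between the groups and cannot be told apart.

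Values are log2 of the deposited array intensity, so that a difference of 1 is a doubling. The probes of 1 transcript cluster stand for 1 gene or a family of close copies, and levels of different clusters cannot be set against each other. Each difference is fetal minus hepatectomy, tested with limma over 10860 named transcript clusters of 10204 genes, and a difference was called at a Benjamini-Hochberg adjusted p under 0.05. The error given beside a difference is its standard error (SE) in that fit. Clusters were tested where their mean over the 7 arrays reached 6.71, the 30th percentile. No detection call was used, and a group whose mean lay under 6.71 may be at background. A fold against such a group is given as a lower bound ("at least"), with its arrays set no lower than 6.71, beside the difference as fitted.

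The fetal arrays fell into pairs. Fetal arrays 1 and 2 correlated at 0.991 over the tested clusters and fetal arrays 3 and 4 at 0.988, whereas arrays of different pairs correlated at 0.953 to 0.957. The 3 hepatectomy arrays correlated at 0.983 to 0.989 with each other and at 0.816 to 0.868 with the fetal arrays. The first principal component, with 79.6% of the variance, separated the groups, and the second, with 12.7%, separated the fetal pairs. The fetal rapamycin arrays carried a matching split: their deviations from the group mean correlated with those of the DMSO array of the same number at 0.428 to 0.706. The sources used here name no litter or day for either pair, and the cause was not tested. Results that the pairs move most are therefore given also without fetal arrays 1 and 2 and without fetal arrays 3 and 4.

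**Figure D1:**
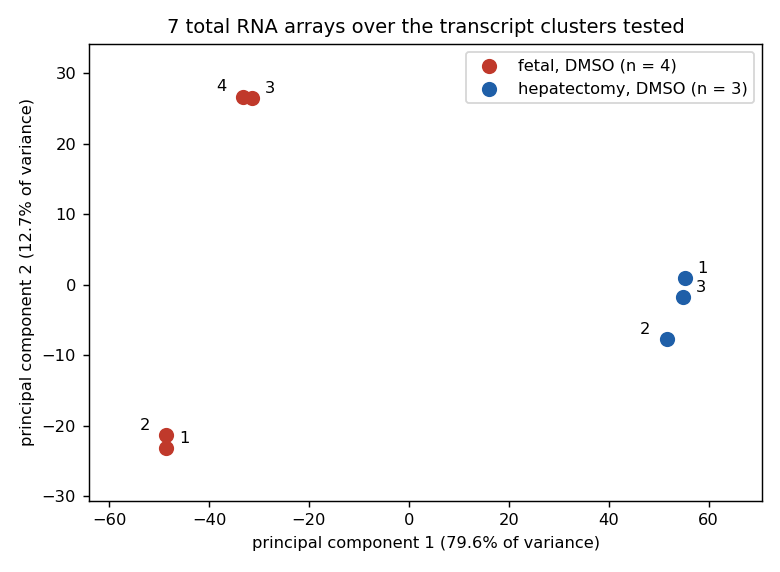
Principal components of the 7 DMSO total RNA arrays over the transcript clusters tested, component 1 (79.6% of the variance) on the x axis and component 2 (12.7%) on the y axis. Numbers are replicate numbers. The 4 fetal arrays lie left of the 3 hepatectomy arrays, and fetal arrays 3 and 4 lie above fetal arrays 1 and 2.

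The tissue label was checked against the defining genes of hepatocytes. Albumin (Alb) read 14.36, 14.40, 14.29 and 14.30 on the fetal arrays, against 14.37, 14.40 and 14.37 on the hepatectomy arrays. Transthyretin (Ttr), apolipoprotein A-I (Apoa1) and alpha-1 antitrypsin (Serpina1) were likewise between 13.52 and 14.09 on all 7 arrays. All 4 hepatocyte genes lay near the top of the scale, whose highest value was 14.80, in both groups. Differences close to that ceiling may be understated.

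Over the whole table, 2209 clusters were higher in fetal liver (20.3% of those tested) and 1852 were lower (17.1%). Differences of more than 2-fold were called for 782 higher (7.20%) and 585 lower clusters (5.39%). The median difference over all clusters was 0.04, and 437 clusters differed by more than 4-fold in either direction. For 46.0% of the tested clusters the values of the groups did not overlap. The count of lower clusters was 1214 without hepatectomy array 3, the only single array whose removal moved either count by more than 1.5 times. Without fetal arrays 1 and 2 the counts were 2979 higher and 1912 lower, and without fetal arrays 3 and 4 they were 2358 higher and 2613 lower.

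Genes of the red cell lineage had the highest median difference of the gene lists examined. Of 37 erythroid genes tested, 34 were higher in fetal liver, each by more than 2-fold, and 1 was lower, with a median difference of 3.26 against 0.04 over all clusters. In bulk RNA, fewer cells of a type and less RNA per cell cannot be told apart. The median level of the list was 12.05, 12.10, 11.26 and 11.14 on the fetal arrays, against 7.76, 7.85 and 7.72 after hepatectomy and 7.85, 8.21 and 7.62 in refed liver. Fetal arrays 1 and 2 stood above fetal arrays 3 and 4, yet all 4 lay far above every adult array. Its median difference was 2.70 without fetal arrays 1 and 2 and 3.66 without fetal arrays 3 and 4.

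The largest positive difference as fitted, among clusters with a single symbol, was that of Hbe1, an embryonic beta-like globin of the yolk sac and early red cells. Hbe1 read 13.47, 13.45, 11.95 and 11.74 on the fetal arrays, against 5.95, 5.67 and 5.60 on the hepatectomy arrays. The fetal pairs differed in it, but the groups were far apart, and refed liver was as low as regenerating liver at 6.02, 6.12 and 6.0. The difference was 6.91 (SE 0.444), or at least 61.5-fold, with a limma adjusted p of 1.14e-05. Globin genes have near-identical copies, so that probes of a cluster may also read its relatives.

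Carbonic anhydrase 1 (Car1), which hydrates carbon dioxide in red cells, read 13.15, 13.11, 12.56 and 12.73 in fetal liver, against 6.30, 6.10 and 6.28 after hepatectomy. Rhag and Rhd, membrane proteins of the Rh blood group complex, were at least 27.9-fold and at least 50.8-fold higher in fetal liver. Ahsp, the chaperone that binds free alpha-globin, was 59.4-fold higher, and Hemgn, a nuclear protein of blood-forming cells, 44.5-fold. These 5 genes, including Car1, were called with limma adjusted p between 8.89e-08 and 2.56e-06.

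Transcription factors of the lineage were also higher. Gata1, the master regulator of red cell genes, read 11.66, 11.45, 10.40 and 10.16 on the fetal arrays, against 6.51, 6.43 and 6.27 after hepatectomy. Klf1, which switches on adult beta-globin, read 12.01, 12.10, 11.40 and 11.07 in fetal liver, against 7.58, 7.28 and 7.46 in regenerating liver. Neither factor overlapped between groups, and both were highest on fetal arrays 1 and 2. Their differences were 4.52 (SE 0.358, adjusted p = 3.91e-05) and 4.20 (SE 0.25, adjusted p = 7.2e-06) in the limma fit. Of the listed genes, Zfpm1, a cofactor of GATA factors (0.21, adjusted p = 0.267), and Bpgm, which makes the regulator of haemoglobin's oxygen affinity (0.17, adjusted p = 0.664), did not pass the test.

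Heme synthesis and iron handling followed in part. Alas2, the rate-limiting enzyme of heme synthesis in red cells, read 13.69, 13.61, 13.21 and 13.30 on the fetal arrays, against 10.10, 9.10 and 9.99 after hepatectomy and 8.42, 9.51 and 8.27 in refed liver. Adult liver was lower on every array, and the fetal excess was 13.2-fold (adjusted p = 1.26e-05). Of 28 genes of heme synthesis and iron, 17 were higher in fetal liver and 4 lower, with a median of 0.70. The mitochondrial iron importer Slc25a37 (3.26), the heme pathway enzyme Uros (2.91), the erythroid mitochondrial transporter Abcb10 (2.81) and the transferrin receptor Tfrc (1.77) were among those that rose. Subunits of the iron store ferritin did not pass, at 0.15 for Fth1 (adjusted p = 0.0892) and -0.03 for Ftl1 (adjusted p = 0.778).

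Promoter sequences of Alas2 and Rhd are given because GATA1 is known to act on red cell genes through the letters AGATAA. They are RefSeq windows on the rat build GRCr8, from 250 bases before to 50 bases after the gene's start, written along the gene's strand. Capitals mark AGATAA, searched on both strands.
Alas2 (GRCr8, chrX:22895200-22895499, plus strand): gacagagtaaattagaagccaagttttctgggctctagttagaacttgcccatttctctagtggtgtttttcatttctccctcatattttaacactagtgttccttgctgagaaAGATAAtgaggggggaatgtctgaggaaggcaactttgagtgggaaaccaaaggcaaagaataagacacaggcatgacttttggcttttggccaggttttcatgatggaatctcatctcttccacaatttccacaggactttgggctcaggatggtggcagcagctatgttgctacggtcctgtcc
Rhd (GRCr8, chr5:152370950-152371249, plus strand): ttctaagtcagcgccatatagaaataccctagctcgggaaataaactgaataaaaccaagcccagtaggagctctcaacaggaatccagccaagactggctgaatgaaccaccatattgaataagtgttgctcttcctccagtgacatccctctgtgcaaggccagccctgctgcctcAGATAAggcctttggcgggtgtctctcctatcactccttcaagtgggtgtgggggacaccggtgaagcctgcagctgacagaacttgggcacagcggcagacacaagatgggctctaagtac
The match began at base 115 of the window in Alas2 and at base 179 in Rhd. AGATAA was found in 9 of the 28 erythroid genes with a window (32.1%), and in 11.6% of all 33469 windows. The windows of Gata1, Klf1, Rhag and Hbe1 did not contain these letters. A match is a description of the letters and does not show a site in use.

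White cell precursors and megakaryocytes were the other blood lineages of the fetal liver. Of 33 granulocyte and mast cell genes, 32 were higher in fetal liver and 1 was lower, with a median of 2.94. All 14 megakaryocyte genes tested were higher, with a median of 2.59. The background share of higher clusters was 20.3%. Without fetal arrays 1 and 2 the 2 medians were 2.91 and 2.69, and without fetal arrays 3 and 4 they were 2.92 and 2.50. The counts cover 33 of the 41 granulocyte and mast cell genes named on the array and 14 of the 16 megakaryocyte genes. The others lay under the filter of 6.71. Median levels after hepatectomy were 6.9, 6.75 and 6.7 for granulocytes and mast cells, and 7.12, 7.01 and 6.92 for megakaryocytes. With adult levels near the filter, a gene could be tested mainly because it was high in fetal liver. The shares of higher genes may therefore be raised by the filter, and 20.3% is not a fair match for them.

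Mpo, the peroxidase of neutrophil granules, read 12.86, 13.04, 12.83 and 12.90 on the fetal arrays, against 6.66, 6.47 and 6.65 after hepatectomy. All 4 fetal values were alike and all adult values were low, refed liver included at 6.46, 6.80 and 6.83. The difference was 6.31 (SE 0.108), or at least 73.4-fold (limma adjusted p = 1.65e-08). Elastase (Elane), a protease stored beside Mpo, was 37.9-fold higher, the secondary granule protein Ngp at least 33.2-fold, and the eosinophil major basic protein Prg2 at least 29.5-fold.

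Hdc, which makes histamine in mast cells and basophils, read 14.21, 14.27, 14.08 and 14.05 in fetal liver, against 7.47, 7.52 and 8.63 in regenerating liver. It was 77.6-fold higher (adjusted p = 1.21e-06), with no overlap. Olfm4, a secreted protein of neutrophil granules, was at least 34.5-fold higher (adjusted p = 1.37e-08). The defensins Defa5 (at least 62.5-fold) and Defa11 (at least 36.7-fold) and the stefin Stfa3 (at least 18.9-fold) belong to gene clusters of close copies, and which copy their probes read is uncertain.

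Platelet factor 4 (Pf4), a chemokine packed into platelets, read 10.37, 10.40, 11.21 and 10.47 on the fetal arrays, against 7.21, 7.15 and 7.20 after hepatectomy. Fetal array 3 was the highest, and no fetal value reached down to the adult ones. Gp1ba, part of the platelet receptor for von Willebrand factor, was at least 12.4-fold higher, and Ppbp, another platelet chemokine, at least 10.3-fold. The summed linear intensity of the megakaryocyte list was 13268 to 17362 over the fetal arrays, against 3246 to 3698 over the hepatectomy arrays. The corresponding sums were 134506 to 214338 against 21508 to 26973 for the erythroid list and 76770 to 82691 against 6961 to 8199 for granulocytes and mast cells. Sums can be compared between groups within a list, not between lists. Of their defining genes, Mpo and Prtn3, another granule protease, lay under 6.71 on every hepatectomy array, and how far blood cells contribute to other results below was not tested.

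**Figure D2:**
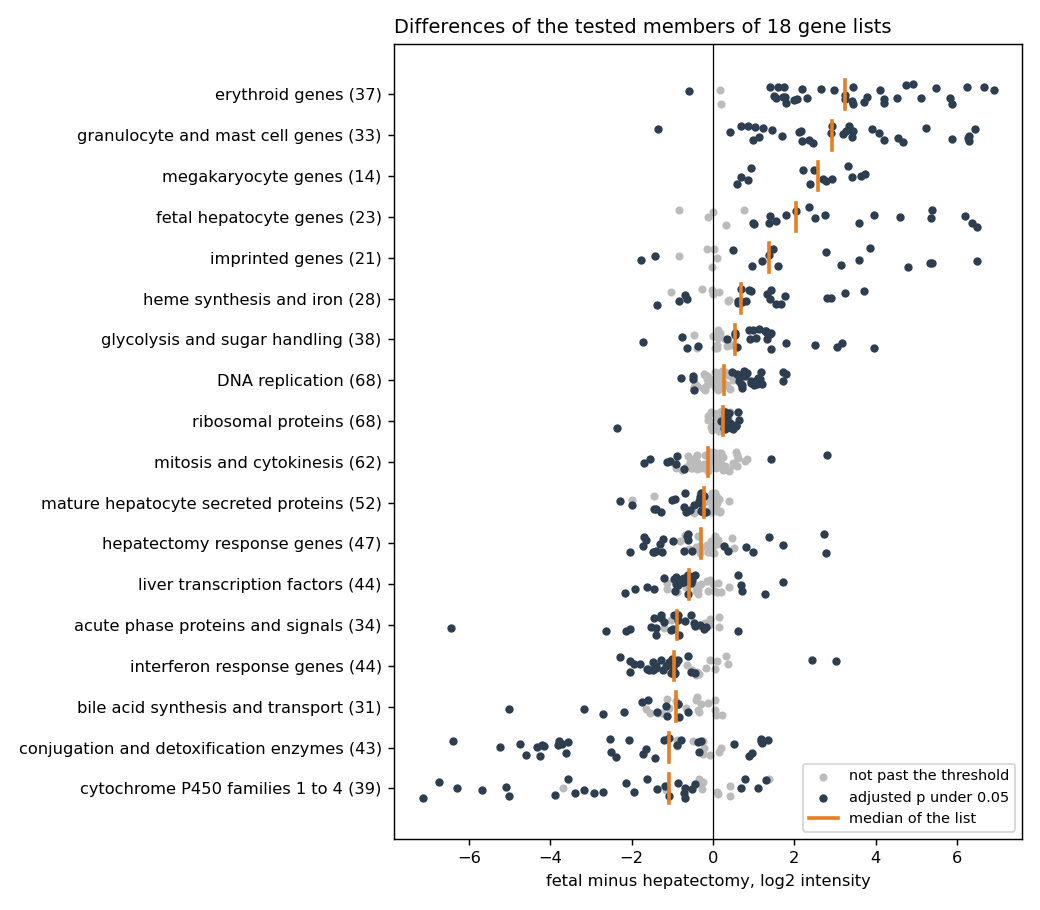
Fetal minus hepatectomy differences (x axis, log2 intensity) of the tested members of 18 gene lists (y axis, number of members in brackets); each point is 1 gene, dark where the adjusted p was under 0.05, and bars mark list medians. The 3 blood lineage lists lie furthest to the right, with medians of 3.26, 2.94 and 2.59, and cytochrome P450 genes reach furthest to the left, down to -7.13.

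Fetal hepatocyte genes were the next group. Of 23 tested, 18 were higher in fetal liver, 17 of them by more than 2-fold, and none was lower at the threshold; the median was 2.05. The list's median level was 11.47, 11.73, 11.25 and 10.92 on the fetal arrays, against 7.76, 7.98 and 7.63 after hepatectomy and 7.80, 8.23 and 7.54 in refed liver. The hepatectomy arrays lay within the range of the refed arrays in this median.

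Alpha-fetoprotein (Afp), the fetal counterpart of albumin in plasma, read 14.17, 14.26, 13.90 and 13.86 on the fetal arrays, against 7.63, 8.33 and 7.63 on the hepatectomy arrays and 7.64, 7.71 and 6.89 on the refed arrays. Hepatectomy array 2 was the highest of the adult arrays, still far under every fetal array. The difference was 6.19 (SE 0.194), 72.9-fold, with a limma adjusted p of 2.4e-07. Albumin, its neighbour on chromosome 14, differed by -0.04 (SE 0.0521, adjusted p = 0.571).

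Windows of these neighbours are given because HNF1 factors, which act in hepatocytes of both stages, are known to bind sites with the letters GTTAAT, here in capitals and searched on both strands.
Afp (GRCr8, chr14:17875596-17875895, minus strand): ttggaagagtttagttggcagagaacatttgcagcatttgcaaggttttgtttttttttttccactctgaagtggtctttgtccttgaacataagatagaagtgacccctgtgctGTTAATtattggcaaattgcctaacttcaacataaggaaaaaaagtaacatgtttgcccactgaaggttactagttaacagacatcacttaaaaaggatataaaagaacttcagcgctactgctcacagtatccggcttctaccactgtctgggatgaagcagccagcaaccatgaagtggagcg
Alb (GRCr8, chr14:17906930-17907229, minus strand): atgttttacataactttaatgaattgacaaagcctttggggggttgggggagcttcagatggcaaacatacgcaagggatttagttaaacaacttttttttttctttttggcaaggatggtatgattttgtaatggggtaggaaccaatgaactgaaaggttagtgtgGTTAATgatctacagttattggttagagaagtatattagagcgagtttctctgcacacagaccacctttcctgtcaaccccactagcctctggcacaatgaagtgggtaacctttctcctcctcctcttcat
GTTAAT began at base 116 of the Afp window and at base 169 of the Alb window. It was present in 7.45% of all windows and in 12 of 44 secreted protein genes (27.3%). It was also in 2 of 15 fetal hepatocyte genes (13.3%) and 4 of 34 cytochrome P450 genes (11.8%). Afp, which differed 72.9-fold, and Alb, which was not called and lay near the top of the scale, both carried it. The part of these letters in either level was not tested.

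Igf2, the main growth factor of the fetus, read 13.91, 14.02, 13.55 and 13.51 on the fetal arrays, against 7.27, 7.42 and 7.08 after hepatectomy. Every fetal array was above 13.5 and every adult array, refed liver included, below 7.5. The difference was 6.49 (SE 0.157), 90.1-fold (limma adjusted p = 7.69e-08). Bex4 was at least 23.6-fold higher, the hepatoblast surface protein Dlk1 42.2-fold, and the cell surface proteoglycan Gpc3, which is used as a marker of liver tumours, 41.5-fold. Scd2, a fatty acid desaturase, was 24.1-fold higher.

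Igf2 and Dlk1 are also imprinted, that is, read from 1 parental copy, and imprinted genes as a list were mostly higher. Of 21 tested, 14 were higher and 2 lower, with a median of 1.38. The Igf2 neighbour H19, a noncoding RNA, read 14.06, 14.10, 13.78 and 13.54 in fetal liver, against 10.40, 10.50 and 9.93 in regenerating liver and 10.94, 10.12 and 10.92 in refed liver. Meg3, the noncoding RNA beside Dlk1, was 28-fold higher, and Grb10, an adaptor that dampens insulin and IGF receptor signals, 40.5-fold. Gnas, which encodes a G protein subunit, did not pass (0.02, adjusted p = 0.786), nor did the amino acid transporter Slc38a4 (-0.84, adjusted p = 0.0511).

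Cdkn1c, an imprinted inhibitor of cyclin-dependent kinases that restrains fetal growth, read 10.51, 10.26, 11.21 and 10.94 on the fetal arrays, against 6.84, 6.91 and 6.85 after hepatectomy. The groups did not overlap, and it was 14.5-fold higher in fetal liver (adjusted p = 5.28e-06). RNA-binding proteins and partners of the oncofetal LIN28 pathway gave 7 higher and none lower of 10. Igf2bp1, which binds Igf2 mRNA, was 5.55-fold higher, and Plag1, an activator of Igf2, at least 2.34-fold. The chromatin protein Hmga2 was higher by 0.74 and its relative Hmga1 by 0.76, a call that was lost without hepatectomy array 1 (0.71).

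The growth hormone and IGF axis held members that differed in opposite ways. Of 25 genes, 8 were higher and 6 lower, beside 20.3% higher and 17.1% lower over all clusters. Igf1, the growth factor that growth hormone draws from adult liver, read 10.20, 10.29, 12.09 and 11.98 on the fetal arrays, against 13.43, 13.38 and 13.32 after hepatectomy. Fetal arrays 3 and 4 came closer to the adult level, yet no fetal array reached it. The difference was -2.23 (SE 0.48, adjusted p = 0.00709), with -1.34 without fetal arrays 1 and 2 and -3.13 without fetal arrays 3 and 4. The growth hormone receptor Ghr differed by -1.10 and the prolactin receptor Prlr by -2.08, both lower in fetal liver.

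Binding proteins for IGFs split as well. Igfbp2, a fetal form, read 10.88, 10.86, 12.40 and 12.11 on the fetal arrays, against 7.87, 8.01 and 8.22 after hepatectomy and 11.46, 11.77 and 10.73 in refed liver. Regenerating liver was thus the low group, and refed adult liver, after a fast, was near the fetal level. Igfbp1, a stress- and fasting-induced form, was 2.62-fold higher in fetal liver (adjusted p = 0.0217), a call lost without hepatectomy array 1 (1.07), without hepatectomy array 2 (1.41) and without fetal arrays 3 and 4 (0.88), whereas Igfbp4 was 4.52-fold lower (adjusted p = 0.00268). Igfbp7 did not pass, at 0.05 (adjusted p = 0.723).

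**Figure D3:**
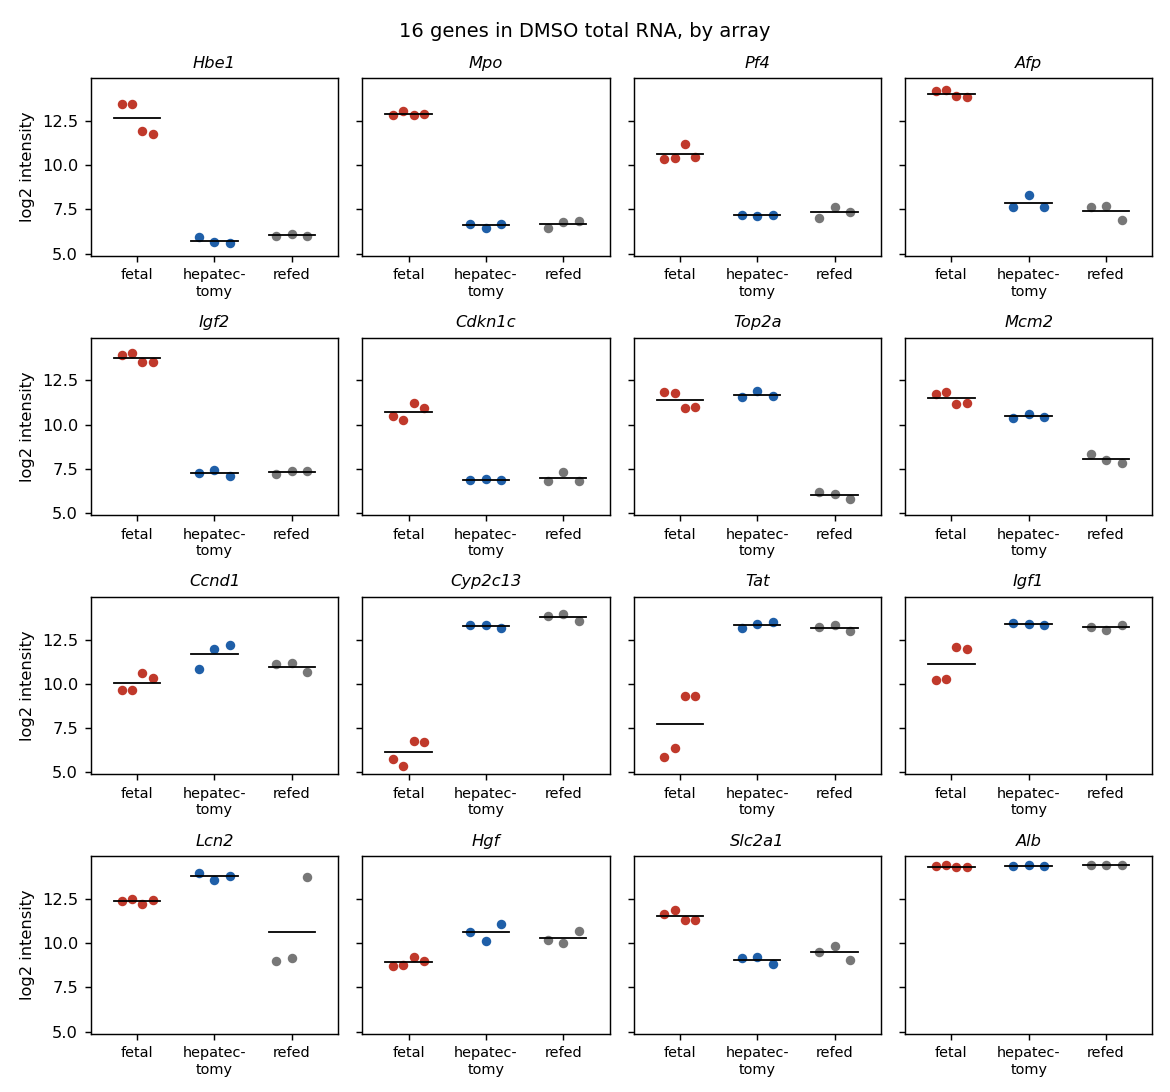
Log2 intensity (y axis) of 16 genes on each DMSO total RNA array, grouped as fetal (n = 4), hepatectomy (n = 3) and refed (n = 3) along the x axis; points are arrays and bars are group means. Hbe1, Mpo, Pf4, Afp, Igf2 and Cdkn1c are high in the fetal group alone, Top2a and Mcm2 are low in the refed group alone, and Cyp2c13, Tat and Igf1 are lowest in the fetal group.

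Both tissues divide, and most genes of mitosis did not pass the test. Of 62 genes of mitosis and cytokinesis, 2 were higher in fetal liver, 7 were lower and 53 did not pass, with a median of -0.13. These shares, like those of the whole table (20.3% higher and 17.1% lower), are counts of calls, and a difference that misses the threshold does not show equal levels. The median level of the list was 10.06, 9.93, 9.11 and 9.35 on the fetal arrays, against 9.26, 9.94 and 9.63 after hepatectomy, with overlap. In refed liver it was 6.0, 6.06 and 5.99, far below every array of both dividing tissues. Bulk RNA covers all cells of the liver, and the part of blood cells in the cell cycle genes here and below was not tested.

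The counts depended on the fetal pairs. Without fetal arrays 1 and 2 the list had 2 higher and 30 lower genes, and a median of -0.50. Without fetal arrays 3 and 4 it had 19 higher and 4 lower genes, and a median of 0.23, the opposite sign. Leaving out single arrays also moved the 7 lower calls, to 11 without fetal array 2 and 11 without hepatectomy array 1, and to 3 without hepatectomy array 2, 3 without hepatectomy array 3 and 4 without fetal array 3; the higher calls numbered 4 without fetal array 3 or 4.

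Cyclin B1 (Ccnb1), which drives entry into mitosis, read 11.19, 11.28, 10.10 and 10.37 on the fetal arrays, against 10.71, 11.49 and 11.18 after hepatectomy and 5.79, 6.24 and 5.99 in refed liver. Its groups overlapped and the difference of -0.40 did not pass (SE 0.319, adjusted p = 0.366). Topoisomerase Top2a, which untangles sister chromosomes, differed by -0.31 (adjusted p = 0.362), and the mitotic kinase Plk1 by -0.03 (adjusted p = 0.947). Cdk1, the kinase partner of cyclin B, was lower in fetal liver at -0.71 (adjusted p = 0.0385), a call that was lost without fetal arrays 3 and 4 (-0.46, adjusted p = 0.122) and without fetal array 3 (-0.58), fetal array 4 (-0.66), hepatectomy array 2 (-0.52) or hepatectomy array 3 (-0.67).

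A few mitotic genes did stand apart. Cdc25b, a phosphatase that activates Cdk1, read 13.25, 13.23, 12.27 and 12.46 on the fetal arrays, against 9.92, 9.94 and 10.11 after hepatectomy and 8.44, 8.46 and 8.25 in refed liver. Regenerating liver was nearer to refed liver than to fetal liver in it, and the fetal excess was 7.03-fold (adjusted p = 7.07e-05). The citron kinase Cit, which acts in cytokinesis, was 2.71-fold higher. Lower in fetal liver were the abscission protein Cep55 (3.22-fold), the mitotic kinase Pbk (2.9-fold) and the spindle checkpoint protein Mad2l1 (2.07-fold). The Mad2l1 call was lost without fetal array 3 (-0.92), hepatectomy array 2 (-0.94) or hepatectomy array 3 (-1.05).

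Genes of DNA replication leaned towards fetal liver. Of 68 tested, 24 were higher and 4 lower, with a median of 0.27. Over all clusters 20.3% were higher and 17.1% lower. The count of higher genes was 14 without hepatectomy array 1 and 39 without fetal arrays 3 and 4. The lower genes numbered 12 without fetal arrays 1 and 2, 2 without hepatectomy array 1 or without fetal arrays 3 and 4, and 1 without fetal array 3, fetal array 4, hepatectomy array 2 or hepatectomy array 3. Its median difference was 0.10 without fetal arrays 1 and 2 and 0.51 without fetal arrays 3 and 4. The list's median level was 9.57, 9.66, 9.27 and 9.39 on the fetal arrays, against 8.82, 9.15 and 9.07 after hepatectomy and 7.05, 7.21 and 7.19 in refed liver. This level, like that of the erythroid list, was higher on fetal arrays 1 and 2 than on fetal arrays 3 and 4. The part of blood cells in it was not tested.

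Mcm2, a subunit of the replicative helicase, read 11.73, 11.82, 11.17 and 11.21 in fetal liver, against 10.35, 10.59 and 10.44 after hepatectomy. It was 2.03-fold higher without overlap (adjusted p = 0.00292). The loading factor Cdc6 was 3.46-fold higher, the origin protein Orc1 3.29-fold, the S phase transcription factor Mybl2 3.32-fold, and the polymerase clamp Pcna 1.6-fold. Ribonucleotide reductase subunits, which supply the DNA precursors, did not pass, at 0.38 for Rrm1 (adjusted p = 0.266) and -0.46 for Rrm2 (adjusted p = 0.0617).

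Regulators of entry into the cycle differed in both directions. Cyclin D1 (Ccnd1), the cyclin through which growth signals act on hepatocytes, read 9.65, 9.66, 10.62 and 10.32 on the fetal arrays, against 10.86, 11.96 and 12.19 after hepatectomy and 11.10, 11.16 and 10.68 in refed liver. It was 3.05-fold lower in fetal liver (limma adjusted p = 0.00831), with fetal array 3 just under hepatectomy array 1. Cyclin D3 (Ccnd3) went the other way, with 12.38, 12.21, 12.02 and 11.88 in fetal liver, against 10.43, 10.53 and 10.57 in regenerating liver. Ccnd2 was also higher, by 0.92 (adjusted p = 0.000296), as was cyclin E1 (Ccne1), by 0.93 (adjusted p = 0.0139), a call lost without hepatectomy array 1 (0.80).

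Mybl1, a relative of the Myb transcription factors, read 6.40, 6.35, 6.18 and 6.44 on the fetal arrays, against 9.26, 10.10 and 10.10 after hepatectomy. Refed liver, at 6.52, 7.06 and 5.59, shared the low fetal level, so that regenerating liver alone was high. The difference was -3.48 (SE 0.207, adjusted p = 7.2e-06). The retinoblastoma gene Rb1, which holds cells in G1, was 4.38-fold higher in fetal liver (adjusted p = 0.0008), and Skp2, which marks cell cycle inhibitors for destruction, 2.54-fold (adjusted p = 0.00495). The inhibitor Cdkn1a (p21) differed by -0.68 and did not pass (adjusted p = 0.152), and neither did Myc (0.51, adjusted p = 0.0591). Of 33 genes of this list, 12 were higher and 4 lower, or 9 lower without fetal arrays 3 and 4. Over all clusters 20.3% were higher and 17.1% lower.

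**Figure D4:**
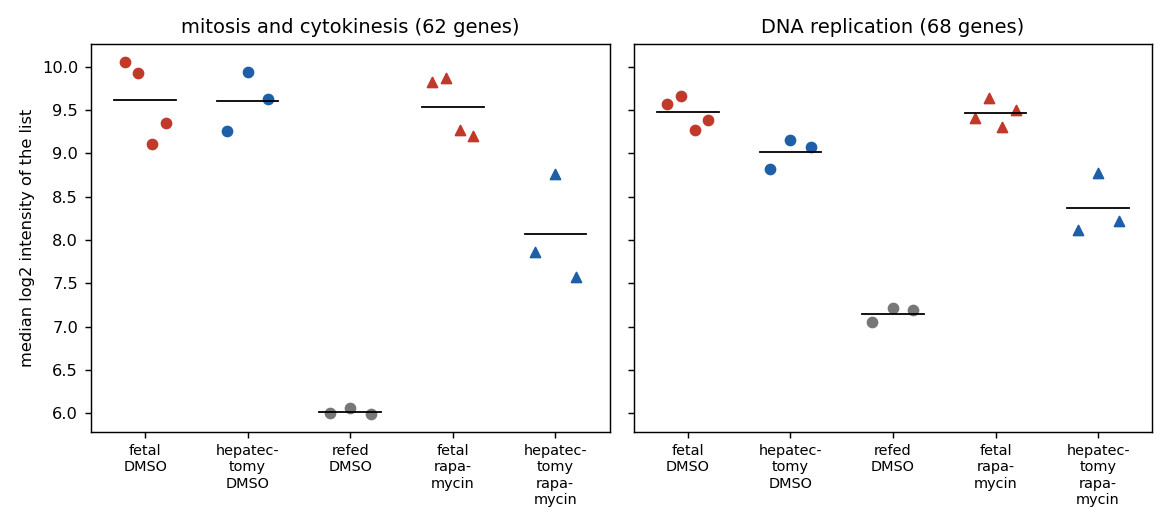
Median log2 intensity (y axis) of 62 mitosis genes (left) and 68 DNA replication genes (right) on each array; circles are DMSO livers, triangles rapamycin livers, and bars are group means. In DMSO livers the mitosis medians of the fetal arrays (9.11 to 10.06) overlap those of the hepatectomy arrays (9.26 to 9.94), and the refed arrays lie at 5.99 to 6.06.

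Over all clusters 20.3% were higher and 17.1% lower. Of 68 ribosomal protein genes, 22 were higher and 1 lower in fetal liver, with a median of 0.25. That count was 5 without hepatectomy array 1, 9 without hepatectomy array 3, and 10 without fetal array 3 or fetal array 4, and 12 without both; no gene was lower without any 1 of 6 arrays, fetal array 2 being the exception. The lower gene was Rps25, with 8.02, 11.65, 7.95 and 9.12 on the fetal arrays, against 11.33, 11.46 and 11.84 after hepatectomy (-2.36, adjusted p = 0.048), and its groups overlapped. Ribosomal protein genes have many processed copies, and which copy a probe reads is uncertain. Genes of ribosome biogenesis gave 6 higher and 2 lower of 70, led by the pseudouridylation factor Gar1 (0.83), and the higher genes numbered 18 without fetal arrays 1 and 2, 2 without fetal array 3, hepatectomy array 1 or hepatectomy array 3, and 3 without fetal array 2. Neither lower call remained without hepatectomy array 2 or without hepatectomy array 3. The nucleolar proteins Ncl (0.25, adjusted p = 0.141) and Npm1 (0.48, adjusted p = 0.0684) did not pass.

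Many enzymes of foreign compound metabolism were lower. Of 39 cytochrome P450 genes of families 1 to 4, which oxidise drugs, steroids and fatty acids, 24 were lower in fetal liver and 4 higher, with a median of -1.09. Of 43 genes of conjugation and detoxification, 27 were lower and 7 higher, with a median of -1.09. Over all clusters 17.1% were lower. The P450 median was -0.63 without fetal arrays 1 and 2 and -1.36 without fetal arrays 3 and 4, and the conjugation median -0.68 and -1.70.

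Cyp2c13, a steroid-hydroxylating P450, had the most negative difference as fitted among clusters with a single symbol. It read 5.74, 5.34, 6.79 and 6.70 on the fetal arrays, against 13.35, 13.31 and 13.16 after hepatectomy and 13.83, 13.94 and 13.58 in refed liver. The 2 adult groups were alike and no fetal array came near them. The difference was -7.13 (SE 0.342), or at least 93-fold lower (limma adjusted p = 2.56e-06).

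Cyp1a2, which handles caffeine and aromatic amines, was 78.8-fold lower in fetal liver, Cyp2c6v1 at least 59.8-fold and Cyp2c11 at least 15.8-fold. Cyp2e1, which oxidises ethanol, read 10.08, 8.90, 10.60 and 10.48 on the fetal arrays, against 13.43, 13.02 and 13.12 after hepatectomy. It was 9.02-fold lower (adjusted p = 0.00032). Cyp2d2 did not pass (-0.24, adjusted p = 0.162). Rat Cyp2c genes are close copies of each other, so that the share of each copy in these signals is uncertain.

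Among conjugating and related enzymes, the carboxylesterase Ces1c was at least 52.5-fold lower in fetal liver, the sulfotransferase Sult2a1 at least 22.6-fold, the glycine acyltransferase Glyat 26.8-fold and the retinal-oxidising Aldh1a1 at least 18.8-fold. Highly expressed members that did not pass were Sult1a1 (0.16), Aldh2 (-0.22) and Gsta1 (-0.07), with limma adjusted p of 0.364, 0.343 and 0.753.

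Single genes of amino acid breakdown were far lower in fetal liver. Tdo2, the liver enzyme that opens the tryptophan ring, read 4.64, 4.72, 6.17 and 5.81 on the fetal arrays, against 12.29, 12.02 and 12.11 after hepatectomy and 12.75, 12.86 and 12.52 in refed liver. It was at least 43.1-fold lower in fetal liver (adjusted p = 4.41e-06). Tat, the glucocorticoid-responsive tyrosine aminotransferase that appears around birth, read 5.87, 6.39, 9.30 and 9.34 in fetal liver, against 13.16, 13.36 and 13.48 in regenerating liver. Fetal arrays 3 and 4 were higher than fetal arrays 1 and 2, while all 4 were below the adult arrays. The Tat difference was -5.61 (SE 0.855, adjusted p = 0.00125), with -4.01 without fetal arrays 1 and 2 and -7.20 without fetal arrays 3 and 4.

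Acmsd, another enzyme of tryptophan breakdown, was at least 9.31-fold lower. Of 56 genes of amino acid degradation, 13 were lower and 11 higher, near the shares of the whole table, with a median of 0.09. These counts moved with single arrays: the higher genes numbered 5 without hepatectomy array 3 and 7 without fetal array 3, fetal array 4, hepatectomy array 1 or hepatectomy array 2, and the lower genes 8 without hepatectomy array 2 or 3. Without fetal arrays 1 and 2 there were 27 higher and 10 lower genes, and without fetal arrays 3 and 4 there were 6 higher and 27 lower, with medians of 0.37 and -0.30. Hpd, of tyrosine breakdown, was not called (0.22, adjusted p = 0.222).

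Bile acid genes were lower or not called. Of 31 genes of bile acid synthesis and transport, 13 were lower and none higher. Without fetal arrays 1 and 2, 2 were higher and 13 lower, with a median of -0.30, and without fetal arrays 3 and 4 there were 27 lower, with a median of -1.50. The organic anion uptake carrier Slco1a4 read 4.84, 5.01, 4.09 and 5.53 on the fetal arrays, against 10.54, 9.59 and 9.53 after hepatectomy and 11.87, 12.16 and 11.14 in refed liver. It was at least 9.05-fold lower in fetal liver (adjusted p = 2.1e-05). The sterol exporter Abcg5 was at least 6.53-fold lower, its partner Abcg8 at least 3.02-fold, and Baat, which joins bile acids to glycine or taurine, 6.5-fold. Cyp7a1, the rate-limiting enzyme of bile acid synthesis, differed by -0.90 and did not pass (SE 0.432, adjusted p = 0.137), and the uptake carrier Slc10a1 by -0.13 (adjusted p = 0.803), or 0.51 without fetal arrays 1 and 2.

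Hepatocytes of the adult lobule differ by their distance from the central vein, and genes of both zones were tested. Over all clusters 17.1% were lower and 20.3% higher. Of 19 pericentral genes, 9 were lower in fetal liver and none higher, with 14 lower without fetal arrays 3 and 4. Beside Cyp1a2 and Cyp2e1 these included the glutamate carrier Slc1a2 (at least 9.06-fold), the Wnt target Axin2 (3.27-fold) and the transcription factor Tbx3 (4.44-fold). Of 21 periportal genes, 6 were lower and 1 higher, or 10 higher without fetal arrays 1 and 2; the 1 higher call was 2 without fetal array 1 or 2 and none without any 1 of the other 5 arrays.

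Most secreted plasma proteins did not pass the test. Of 52 tested, 32 did not pass, 20 were lower and none higher, with a median of -0.22. The lower genes numbered 13 without fetal array 1 or hepatectomy array 2 and 12 without hepatectomy array 1 or 3, and 5 genes were higher without fetal arrays 1 and 2. The median was -0.07 without fetal arrays 1 and 2 and -0.30 without fetal arrays 3 and 4. Transferrin (Tf) differed by 0.01 (SE 0.048) and fetuin A (Ahsg) by 0.01 (SE 0.0571), both near the top of the scale. The largest falls among the called genes were those of the antioxidant enzyme Pon1 (4.85-fold), the complement protein C9 (3.93-fold), coagulation factor F7 (2.73-fold) and the complement protein C6 (2.66-fold).

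Liver transcription factors were on balance lower, 20 of 44, with 5 higher and a median of -0.58, which was -0.33 without fetal arrays 1 and 2 and -0.81 without fetal arrays 3 and 4. Hnf4a, the central factor of hepatocyte identity, read 11.94, 11.82, 12.29 and 12.20 on the fetal arrays, against 12.84, 12.75 and 12.71 after hepatectomy. The groups did not overlap although the difference was small, -0.70 (SE 0.124, adjusted p = 0.0027). Zbtb20, which represses Afp in the mouse after birth, was 3.75-fold lower in fetal liver (adjusted p = 6.93e-06), and Foxa1 3.09-fold. The nuclear receptors Ppara, which senses fatty acids, and Thrb, a thyroid hormone receptor, were 3.32-fold and 2.41-fold higher. Cebpa, which restrains hepatocyte division, did not pass (0.39, adjusted p = 0.152).

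Some of the largest falls lay outside the lists. Rup2, a urinary protein gene, read 5.88, 5.12, 5.38 and 6.57 on the fetal arrays, against 12.65, 12.73 and 12.58 after hepatectomy, and was at least 61.5-fold lower (adjusted p = 1.69e-06). The canalicular drug pump Abcb1b read 6.41, 5.94, 5.95 and 6.28 on the fetal arrays, against 11.06, 12.08 and 12.35 after hepatectomy and 9.34, 9.23 and 10.03 in refed liver. The order of the groups was fetal, refed, then regenerating, with no overlap, and the difference was -5.68 (SE 0.291, adjusted p = 3.33e-06). Carbonic anhydrase 3 (Car3) was 77.8-fold lower in fetal liver, the polymeric immunoglobulin receptor Pigr 49.3-fold, the vasopressin receptor Avpr1a 47.7-fold and the magnesium transporter Slc41a2 63.7-fold.

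Sugar metabolism leaned towards fetal liver. Of 38 genes of glycolysis and sugar handling, 21 were higher and 4 lower, with a median of 0.55; the lower genes numbered 2 without hepatectomy array 2. The glucose transporter Slc2a1, which supplies red cells and growing tissues, read 11.65, 11.87, 11.32 and 11.34 on the fetal arrays, against 9.14, 9.21 and 8.80 after hepatectomy. It was 5.64-fold higher (adjusted p = 1.74e-05). The high-affinity carrier Slc2a3 was at least 5.86-fold higher, hexokinases Hk1 8.25-fold and Hk2 3.47-fold, and pyruvate kinases Pkm 2.65-fold and Pklr 2.45-fold. Gapdh differed by 0.00 (SE 0.0548, adjusted p = 0.987) near the top of the scale. Hk1 and Slc2a1 are also expressed in blood precursors, whose genes were high in the same samples, and the part of those cells in these differences was not tested.

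Genes of gluconeogenesis and glycogen gave 7 higher and 2 lower of 18, or 11 higher without fetal arrays 1 and 2 and 4 lower without fetal arrays 3 and 4. Over all clusters the shares were 20.3% higher and 17.1% lower. The lower genes numbered 1 without fetal array 2 or any 1 of the hepatectomy arrays. Pck1, the enzyme that commits carbon to glucose synthesis and is switched on at birth, read 6.84, 6.70, 10.38 and 9.47 on the fetal arrays, against 13, 12.67 and 13.64 after hepatectomy and 10.34, 10.57 and 10.42 in refed liver. Refed liver lay between the other groups, beside fetal arrays 3 and 4. The difference was -4.76 (SE 0.876, adjusted p = 0.00331), with -3.18 without fetal arrays 1 and 2 and -6.34 without fetal arrays 3 and 4. Among the 7 higher genes, glycogen phosphorylase Pygl was 2.17-fold higher in fetal liver, the synthase Gys2 1.86-fold and Ugp2, which makes its substrate, 2.05-fold. The glucose-releasing phosphatase G6pc1 spread over 9.13, 10.46, 12.27 and 12.44 on the fetal arrays, against 11.49, 10.18 and 12.98 after hepatectomy, and was not called (-0.47, adjusted p = 0.714).

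Lipid genes gave 4 higher and 4 lower of 36 for fatty acid oxidation, 5 and 8 of 28 for fatty acid synthesis, and 3 and 6 of 25 for cholesterol. The shares over all clusters were 20.3% higher and 17.1% lower. The oxidation list depended on the fetal pairs, with 12 higher genes without fetal arrays 1 and 2 and 17 lower genes without fetal arrays 3 and 4, and its lower genes numbered 2 without hepatectomy array 3. The synthesis list had 14 lower genes without fetal arrays 3 and 4 and 3 higher genes without hepatectomy array 3. The higher cholesterol genes numbered 5 without fetal arrays 1 and 2 and 1 without fetal array 4, hepatectomy array 2 or hepatectomy array 3. Thrsp, which responds to thyroid hormone and carbohydrate, was 13.1-fold lower and malic enzyme Me1 8.04-fold lower in fetal liver. The muscle form of carnitine palmitoyltransferase, Cpt1b, was 5.61-fold higher, the uncoupling protein Ucp2 4.4-fold and lipoprotein lipase Lpl 5.14-fold.

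Over all clusters 20.3% were higher and 17.1% lower. With all 7 arrays, genes of ammonia disposal were called at near those shares and genes of respiration less often. Of 9 urea cycle genes, 2 were higher and 1, arginase Arg1 (-0.89, adjusted p = 0.0128), was lower, a call lost without hepatectomy array 2 (-0.73). The lower genes numbered 3 without fetal array 3 and 4 without fetal arrays 3 and 4. Cps1, the gateway enzyme of the cycle, read 13.72, 13.78, 13.80 and 13.74 on the fetal arrays, against 13.66, 13.85 and 13.70 after hepatectomy. The values overlapped and it was not called (0.03, adjusted p = 0.763). Of 68 genes of oxidative phosphorylation, 2 were higher and 4 lower, all within 0.57 of 0, with 27 higher without fetal arrays 1 and 2. Leaving out any 1 array gave 1 to 4 higher and 1 to 3 lower.

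Most acute phase genes were lower in fetal liver than in regenerating liver. Of 34 acute phase proteins and signals, 25 were lower in fetal liver and 1 was higher, with a median of -0.88; the higher call was lost without fetal array 3, fetal array 4, hepatectomy array 2 or hepatectomy array 3. The median was -0.54 without fetal arrays 1 and 2 and -1.04 without fetal arrays 3 and 4. Lipocalin 2 (Lcn2), an iron-sequestering protein of the acute phase, read 12.40, 12.48, 12.23 and 12.44 on the fetal arrays, against 13.99, 13.56 and 13.80 after hepatectomy and 8.99, 9.18 and 13.74 in refed liver. Fetal liver was thus itself high, above refed arrays 1 and 2, and refed array 3 stood with the hepatectomy arrays. Which cells gave the fetal Lcn2 signal, granulocytes among them, was not tested. Lcn2 was 2.63-fold lower in fetal liver (adjusted p = 4.48e-05), a call lost in fits whose spread was taken over all 20 total RNA or all 40 arrays, the refed ones included.

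Socs3, which feeds back on interleukin 6 signals, read 7.87, 7.92, 8.50 and 8.10 on the fetal arrays, against 10.46, 9.88 and 10.04 after hepatectomy. It was 4.09-fold lower without overlap (adjusted p = 0.000103). The serine protease inhibitor Serpina3m, 1 of a cluster of close copies, was at least 36.9-fold lower, the lipopolysaccharide receptor Cd14 4.39-fold and C-reactive protein (Crp) 2.71-fold. Alpha-2-macroglobulin (A2m), the best known acute phase protein of the rat and also a fetal one, read 14.05, 14.10, 14.04 and 14.04 in fetal liver, against 13.99, 13.77 and 14 after hepatectomy and 11.50, 11.26 and 13.91 in refed liver. It was high in both dividing tissues and low on refed arrays 1 and 2, and its difference of 0.14 was not called (adjusted p = 0.166). The iron hormone hepcidin (Hamp) was not called either (-1.04, adjusted p = 0.0888).

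Interferon response genes were lower as a list, with 28 of 44 lower, 2 higher (1 to 3 when any 1 array was left out) and a median of -0.96. The lower genes numbered 18 without hepatectomy array 1, which was the highest hepatectomy array in the list's median level at 9.31, against 8.57 and 8.58 on the other 2. That level was 7.93, 8.33, 8.35 and 8.36 on the fetal arrays, and spread over 8.50, 8.27 and 9.76 in refed liver. Without fetal arrays 1 and 2, 19 genes were lower and the median difference was -0.72. Without fetal arrays 3 and 4, 29 were lower and it was -1.24. Cxcl9, a chemokine induced by interferon gamma, was at least 3.11-fold lower in fetal liver (adjusted p = 0.000225) and Herc6 at least 3.28-fold (adjusted p = 0.00267). Antiviral Rsad2 went the other way, with 9.61, 10.21, 9.57 and 9.90 on the fetal arrays, against 8.07, 6.64 and 7.47 after hepatectomy. Ifit1 read 4.87, 9.51, 9.15 and 9.04 on the fetal arrays, against 4.46, 5.37 and 5.49 after hepatectomy: fetal array 1 stood at the adult level and the other 3 far above it, and its call (adjusted p = 0.0475) was lost without any 1 of the other 6 arrays, at differences of 2.58 to 3.23.

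Genes known to respond to hepatectomy itself were mixed, 16 lower and 8 higher of 47. Over all clusters 17.1% were lower and 20.3% higher. Hepatocyte growth factor (Hgf), which stellate cells make to drive regeneration, read 8.72, 8.78, 9.24 and 8.97 on the fetal arrays, against 10.64, 10.12 and 11.10 after hepatectomy and 10.19, 10.01 and 10.71 in refed liver. Fetal liver was the low group, and refed liver was close to regenerating liver. Hgf was 3.23-fold lower (adjusted p = 0.00068), and the activin subunits Inhbc and Inhbe were 4.07-fold and 3.28-fold lower, the Inhbe call being lost without hepatectomy array 3 (-1.43). Higher in fetal liver were the membrane-binding annexin Anxa2 (6.66-fold) and thrombospondin 1 (Thbs1, 6.87-fold), which is also a platelet gene.

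Markers of the other liver cells moved in both directions, as did the whole table, with 20.3% of clusters higher and 17.1% lower. Of 28 macrophage and Kupffer cell genes, 10 were higher and 8 lower; the higher genes numbered 4 without hepatectomy array 2 or 3, 5 without fetal array 2 or hepatectomy array 1, and 6 without fetal array 4, and the lower genes 5 without hepatectomy array 1. The complement receptor Vsig4 of mature Kupffer cells was 7.54-fold lower in fetal liver (adjusted p = 2.35e-06), whereas the lysozyme Lyz2, which granulocytes share, was 4.72-fold higher (adjusted p = 3.33e-06). The Kupffer lectin Clec4f was not called (-0.57, adjusted p = 0.149). The other Kupffer markers, Cd163 and Marco, read lower in fetal liver. Cd163 read 10.01, 10.21, 10.24 and 10.09 on the fetal arrays, against 10.74, 10.61 and 10.59 after hepatectomy. Marco read 8.84, 9.40, 8.97 and 9.48 on the fetal arrays, against 9.92, 9.49 and 9.85 after hepatectomy. Lymphocyte and antigen presentation genes gave 6 higher and 9 lower of 21, the class II chaperone Cd74 (-1.93) and the class II chain RT1-Da (-2.0) being lower. The T cell gene Cd3e stayed under the intensity filter on all arrays, between 5.79 and 6.61.

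Of 40 endothelial genes, 7 were higher and 10 lower, beside 20.3% higher and 17.1% lower over all clusters. The higher genes numbered 3 or 4 without any 1 of fetal arrays 3 and 4 or the hepatectomy arrays. They numbered 11 without fetal arrays 1 and 2, and the lower genes 18 without fetal arrays 3 and 4. The endothelial markers Kdr and Cdh5 overlapped between the groups. The adhesion molecule Vcam1, which also retains blood precursors, read 10.67, 10.82, 10.02 and 10.23 on the fetal arrays, against 8.03, 7.61 and 7.55 after hepatectomy. Icam1, the adhesion molecule for circulating leukocytes, read 8.16, 8.44, 8.36 and 8.47 in fetal liver, against 10.71, 10.61 and 10.47 in regenerating liver. The vascular adhesion genes thus differed in opposite directions, Vcam1 by 2.70 (adjusted p = 4.16e-05) and Icam1 by -2.24 (adjusted p = 4.31e-06). Wnt2, which central vein endothelium sends to hepatocytes, was 2.33-fold lower (adjusted p = 0.000376).

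Stellate cell and fibroblast genes gave 10 higher and 13 lower of 37, with the retinol-storing enzyme Lrat not called (-0.21, adjusted p = 0.515). Over all clusters 20.3% were higher and 17.1% lower, also the background for the matrix and bile duct counts below. Of the other stellate markers, Reln read 10.30, 10.22, 10.26 and 10.24 on the fetal arrays, against 9.76, 9.30 and 9.57 after hepatectomy. The marker Des overlapped between the groups. Gelsolin (Gsn), which cuts actin filaments, was 38.4-fold higher in fetal liver (adjusted p = 8.89e-08), and the matrix protein Dpt 5.71-fold lower (adjusted p = 9.83e-06). Of 44 genes of collagens and matrix, 13 were higher, or 8 without hepatectomy array 3, and 5 lower, or 10 lower without fetal arrays 3 and 4. Col1a1, the main collagen of fibrous tissue, was higher by 0.98 (adjusted p = 0.00278). Of 22 bile duct genes, 9 were higher and 5 lower, with 3 lower without hepatectomy array 2, and with the keratin Krt19 2.91-fold higher and Epcam not called (0.30, adjusted p = 0.56).

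The same comparison in rapamycin livers, none of whose arrays enter the DMSO comparison, called 2517 higher (23.2%) and 1824 lower clusters (16.8%). Of the 4061 clusters called in DMSO livers, 4011 (98.8%) differed in the same direction there and 3163 (77.9%) were called in it. Those 3163 were 72.9% of the 4341 clusters called in rapamycin livers. The 2 sets of differences correlated at 0.942 over the 10860 clusters, as a description, since clusters are not independent. Stage of life and surgery differ between the groups here too, and the fetal rapamycin arrays carried the split of the fetal DMSO arrays. The agreement is therefore not an independent test. Hbe1 differed by 6.49, Afp by 6.13, Cyp2c13 by -7.81 and Tat by -6.22 in rapamycin livers.

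Of the 37 lists, mitosis genes had medians furthest apart in the 2 sets. In rapamycin livers 50 of the 62 genes were higher in fetal liver and none was lower, with a median of 1.35, against 2 higher in DMSO livers. The median level of the list was 9.82, 9.87, 9.27 and 9.20 on the fetal rapamycin arrays, against 7.86, 8.76 and 7.57 on the hepatectomy rapamycin arrays. The fetal rapamycin arrays lay within the range of the fetal DMSO arrays (9.11 to 10.06), and each hepatectomy rapamycin array lay below every hepatectomy DMSO array (9.26 to 9.94). Tested as an interaction across all clusters, the difference between the 2 sets was called for 0 clusters in either direction (0% of 10860), while 713 had an unadjusted p under 0.05. For Ccnb1 the interaction was 1.94 (limma adjusted p = 0.398) and for Top2a 1.54 (adjusted p = 0.452). Without hepatectomy rapamycin array 2, 59 clusters were called as larger in rapamycin livers, 29 of them mitosis genes. Same-numbered fetal DMSO and rapamycin arrays deviated together (0.428 to 0.706), while same-numbered hepatectomy arrays did not (-0.039 to 0.196). With the replicate number as a block within each model, a fit added after the data were seen, 129 clusters were called as larger and 22 as smaller in rapamycin livers, and 51 of the 129 were mitosis genes, with 10 from DNA replication. The labels describe proliferation of the hepatocytes in the hepatectomy rapamycin livers as inhibited by the drug.

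**Figure D5:**
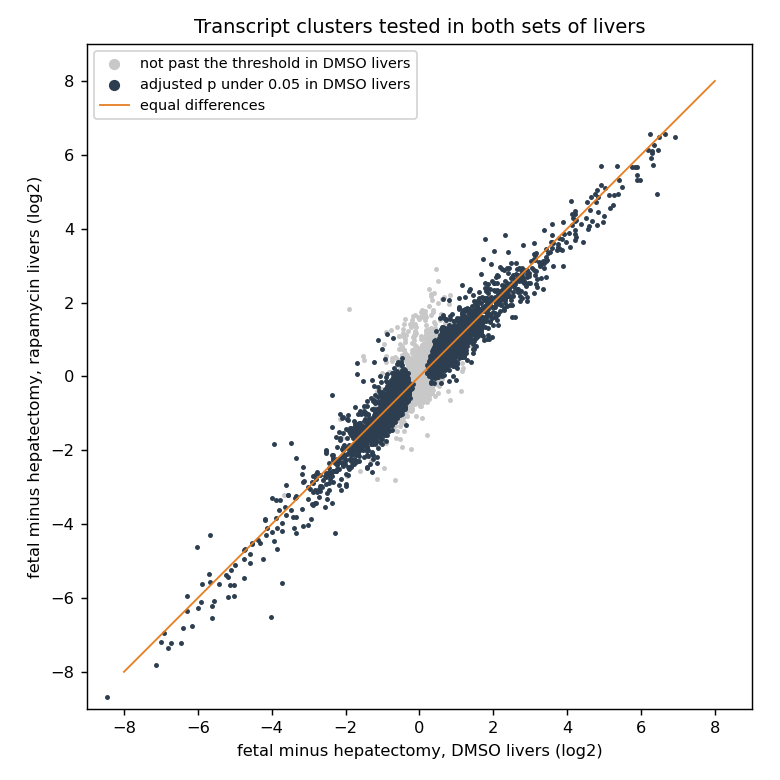
Fetal minus hepatectomy difference (log2) of each of 10860 transcript clusters in DMSO livers (x axis) and in rapamycin livers (y axis); dark points passed the threshold in DMSO livers and the line marks equal differences. Points follow the line (r = 0.942), with a spread above it near the centre of the x axis.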

How the data were processed

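The arrays were Affymetrix Rat Gene 1.0 ST arrays of liver total RNA. The authors deposited linear intensities, normalized by RMA per the submitters' processing notes; its version, settings and the set of arrays normalized jointly were not given in the sources used here. Of 28826 transcript clusters, 15209 had 1 gene symbol, 306 several and 13311 none. Intensities were taken to log2, and named clusters at or above the 30th percentile of mean log2 intensity (6.71) were tested with limma 3.58.1 (R 4.3.3; lmFit, eBayes with trend), two-sided, with Benjamini-Hochberg adjustment. The 2 groups enter the fit alone, without a block, leaving 5 residual degrees of freedom; the code was tested on simulated data. The number of arrays limits the precision. The labels call arrays biological replicates, and where livers share a litter p-values would be too small.

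A gene list uses 1 cluster per gene, the one with the highest mean. The gene lists and the genes named were chosen with earlier results of these data known. Named genes are the 20 largest called differences in each direction with 1 symbol, up to 6 called members of each list with the largest difference, up to 3 uncalled members with the highest intensity, and a fixed set of marker genes. Some genes of that set were not analysed here, and Fst was under the filter. Alternatives were other filters, scalings, sample sets, blocks and the omission of arrays.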

Additional observations from a re-analysis of the deposited data

Results flagged for a closer look

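Several values stood apart within the 4 fetal arrays by Dixon's test, which chance alone does for about 1 in 20 groups tested. The test was run on 179 genes and 37 list medians, so the 8 values are not more than that share. Ifit1 read 4.87 on fetal array 1, against 9.04 to 9.51 on the other 3, and the interferon response list had a median level of 7.93 on the same array, against 8.33 to 8.36. Me1 also stood apart on fetal array 1, at 6.88 against 7.48 to 7.55. On fetal array 2, Axin2 read 7.37 against 7.90 to 7.95, and A2m read 14.1 against 14.04 to 14.05. On fetal array 3, Pf4 read 11.21 against 10.37 to 10.47, and Slc2a3 read 9.43 against 9.20 to 9.22. The granulocyte and mast cell list had a median level of 9.80 on fetal array 4, against 9.58 to 9.60 on the other 3. The cause of these values was not tested.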

How the results depend on the processing

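In the DMSO comparison the counts stayed within 1.5 times of 2209 higher and 1852 lower clusters with no filter, a filter at the 50th percentile, cyclic loess, median centring, no intensity trend, and fits over all 20 total RNA or all 40 arrays. Leaving out 1 array gave 1597 to 2135 higher and 1214 to 1831 lower clusters. More than 2-fold differences numbered 782 and 585. Replicate numbers did not pair fetal with hepatectomy arrays (correlations of deviations -0.156, 0.212 and 0.097), and a replicate block gave 1828 higher and 1653 lower clusters. In the test of rapamycin against DMSO livers, which called 0 clusters, leaving out 1 array gave 0 to 59 larger and 0 smaller, a replicate block 1 smaller, and a block within each model 129 larger and 22 smaller. Without fetal arrays 1 and 2, 4 clusters were smaller, and without fetal arrays 3 and 4, 2 were larger and 1 smaller. Slc10a1 changed sign to a called 0.51 without fetal arrays 1 and 2; the cause was not tested. No gene named in the text changed sign with a call under any other alternative. The leave-out of fetal pairs and the block within each model were chosen after seeing the data. Among genes named, calls were also lost for Cdk1 and Lcn2 over all 20 total RNA or all 40 arrays, for Cdk1 and Rps25 with the replicate block, for Ifit1 and Rps25 with no filter, and for Ifit1 with cyclic loess. The filter acts on the mean over the arrays, so that a group at background could pass through the other, and differences near the top of the scale may be understated.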
